A study of Mus musculus with 8 samples.

Results

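RNA sequencing of hair follicle stem cells was compared between 4 libraries labelled as deleted for Nfib on both alleles and 4 libraries that kept at least 1 intact Nfib allele, which together are all 8 libraries of the study. The NFIB-deleted side held NFIB-cKO 81 and 85 and NFIB/X-dKO 33 and 36. The NFIB-retaining side held WT 34 and 82 and NFIX-cKO 32 and 88. The number after each group name is the animal number of the label, and the sides were set by genotype alone. Each side held 2 animals numbered in the 30s and 2 in the 80s, so a term for this series was kept in the model and the NFIB difference was taken within it. The result is the difference with Nfib loss averaged over cells with and without Nfix. On the deleted side both NFIB-cKO animals were numbered in the 80s and both NFIB/X-dKO animals in the 30s. A step between these groups, wherever given below, cannot be told apart from a step between the series.

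All animals were male and aged 70 days (P70), in the second resting phase of the hair cycle, and cells of their back skin were sorted as negative for DAPI and Sca-1 and positive for integrin alpha 6 and CD34. All groups carried R26-YFPfl/fl. The WT mice were NFIBfl/fl and NFIXfl/fl littermates with no Cre listed, and their cells were not gated on YFP. The other 3 groups carried Sox9-CreER and were also gated as YFP positive: NFIB-cKO with NFIBfl/fl, NFIX-cKO with NFIBfl/+ and NFIXfl/fl, and NFIB/X-dKO with NFIBfl/fl and NFIXfl/fl. Sox9-CreER drives an inducible Cre in cells that use the Sox9 promoter, the floxed alleles are the ones Cre can delete, and the YFP reporter marks cells in which Cre has acted. The labels name no inducing agent. WT therefore differs from the other groups in Cre and in the gate, and the NFIX-cKO cells had 1 floxed Nfib allele. For NFIB-cKO no floxed Nfix allele is listed, so WT and NFIB-cKO also differ in that. All 4 NFIB-deleted libraries carried Cre, so the comparison is also given without the WT group, where every library carried Cre and the gate. Each library had its own animal number and was taken as 1 animal.

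Nuclear factor I (NFI) proteins are transcription factors, encoded in mammals by Nfia, Nfib, Nfic and Nfix, that bind DNA as dimers at a palindrome built from the letters TTGGC and are known for opening chromatin at enhancers. The bulge of the resting hair follicle holds the stem cells that rebuild the hair in each cycle, and the sebaceous gland sits directly above it. NFIB in these stem cells is also known for restraining the melanocyte stem cells that share the bulge. The title of the study names NFI factors as governors of chromatin access in stem cells, and the comparison here asks which transcripts differed when NFIB was the factor lost.

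Levels are in TPM, a length-scaled share of each library's transcripts. Differences are log2(TPM + 1) of NFIB-deleted minus NFIB-retaining libraries ± SE, which understate the change of weakly expressed genes. A gene is called, and written as having risen or fallen, where limma's adjusted p over all genes tested was under 0.05. Per-library values are given in the order WT 34, WT 82, NFIX-cKO 32 and NFIX-cKO 88 for the NFIB-retaining side, and NFIB-cKO 81, NFIB-cKO 85, NFIB/X-dKO 33 and NFIB/X-dKO 36 for the NFIB-deleted side. Gene positions are on mm10 from GENCODE M21.

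Of 15434 genes tested, 901 (5.84%) were called, 702 (4.55%) as higher and 199 (1.29%) as lower in NFIB-deleted cells. At an absolute difference of at least 1, the called genes were nearly even, with 127 higher and 112 lower. The median gene stood 0.10 higher in the deleted libraries. After median-of-ratios scaling, which moved that median by -0.10 to zero, 436 genes (2.82%) were called, 200 (1.30%) higher and 236 (1.53%) lower, so the share of called genes that were higher went from 77.9% to 45.9%. The 4 deleted libraries lay wholly above the 4 retaining ones in 490 of the called higher genes and wholly below in 169 of the called lower ones, beside 6.84% and 2.11% of all genes tested. The 200 higher and 190 of the lower genes were called both ways. Small rises called only on the deposited scale therefore depend on that scale, and rises and falls below are best read against the median of 0.10. Leaving out 1 library gave 33 calls for NFIB/X-dKO 36 and 94 for NFIB/X-dKO 33. It gave 368 for WT 82, 373 for NFIB-cKO 85, 394 for NFIB-cKO 81 and 417 for WT 34. All 901 genes kept their direction each time, which follows in part from their being called on these libraries.

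Without the WT group, 274 genes (1.78%) were called, 189 (1.22%) higher and 85 (0.551%) lower, in a fit of 6 libraries. All 901 genes kept their direction there, and 146 of the higher and 70 of the lower ones were still called. These libraries had entered the calls, so agreement in direction, here and in the subsets below, follows in part from the choice of genes. On the expected counts of the 5 libraries that have them, NFIB-cKO 85 and both NFIB/X-dKO against both NFIX-cKO, edgeR called 214 of 18599 genes (1.15%), 101 (0.543%) higher and 113 (0.608%) lower. Of the called genes it tested, 698 of 699 higher and 195 of 195 lower ones had the same sign, and 70 of each were called. Without the NFIX-cKO group, which leaves WT alone as the retaining side, 1006 genes (6.52%) were called, 677 (4.39%) higher and 329 (2.13%) lower, among them 404 and 148 of the genes called over all 8 libraries.

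The targeted gene did not fall in total transcript. Nfib (chromosome 4, 82290173 to 82705750) read 229.6, 209, 199.97 and 148 TPM in the NFIB-retaining and 293, 233, 377 and 389 TPM in the NFIB-deleted libraries. The 4 deleted libraries were the highest, with both NFIB/X-dKO animals above both NFIB-cKO animals, and the rise was 0.70 ± 0.13, adjusted p = 0.0283. It was not called after scaling (0.58, adjusted p = 0.065). Which exon was deleted is not given in the labels, and transcripts that lack it would still add to this level, so the value checks no label. Of the other family members, Nfix read 123 to 158 TPM in the NFIB-retaining and 125 to 154 TPM in the NFIB-deleted libraries (difference -0.00 ± 0.11, adjusted p = 0.993), Nfia differed by 0.39 ± 0.11, adjusted p = 0.0822, and Nfic by 0.08 ± 0.09, adjusted p = 0.622. None of these 3 passed the test.

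The markers of the sort were abundant in every library. Cd34, the sorted surface protein, read 929 to 1144 TPM in the NFIB-retaining and 811 to 1024 TPM in the NFIB-deleted libraries, and Krt15, a keratin of bulge cells, 11904 to 14487 TPM in the NFIB-retaining and 7507 to 13202 TPM in the NFIB-deleted libraries. The 8 stem cell markers summed to 8976 to 15052 TPM in deleted and 13704 to 16287 TPM in retaining libraries. Defining markers of Merkel cells summed to at most 0.08 TPM, of adipocytes to at most 0.06 TPM and of smooth muscle to at most 0.44 TPM, and immune markers to 1.10 to 3.75 TPM in deleted and 1.59 to 4.21 TPM in retaining libraries. Endothelial markers summed to at most 2.05 TPM. Keratins and Ly6a of the Sca-1-positive epidermis summed to 515 to 1676 TPM in deleted and 650.4 to 2315 TPM in retaining libraries, in overlapping ranges. The sums of 4 sebocyte, 4 melanocyte and 6 fibroblast markers separated the sides and are given with the genes they touch. The wider sebaceous lipid list also separated the sides, at 504.43 to 583.57 TPM in deleted and 708.67 to 1128.54 TPM in retaining libraries. The wider melanocyte and fibroblast lists overlapped in their sums. The 10 melanocyte genes summed to 80.55 to 113.45 TPM in deleted and 65.25 to 86.56 TPM in retaining libraries. The 12 fibroblast and dermal papilla genes summed to 195.78 to 327.21 TPM in deleted and 242.76 to 337.59 TPM in retaining libraries. In bulk libraries, fewer cells of a type and less RNA per cell cannot be told apart.

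The genes that fell most included secreted proteins that were abundant in WT and near zero in deleted cells. Myoc (chromosome 1, 162639155 to 162649693) encodes myocilin, a secreted glycoprotein best known from the eye. It read 70.8, 30.9, 27.1 and 9.96 TPM in the NFIB-retaining and 1.27, 0.29, 0.08 and 0.09 TPM in the NFIB-deleted libraries, a fall of -4.41 ± 0.53, adjusted p = 0.00902. Every deleted library lay under every retaining one, both NFIB/X-dKO libraries were lowest, and the NFIX-cKO libraries lay under both WT libraries. Cck (chromosome 9, 121489824 to 121495694), the gene of the peptide hormone cholecystokinin, read 63.2, 35.2, 13.97 and 5.73 TPM in the NFIB-retaining and 0.27, 0.55, 0.30 and 0.37 TPM in the NFIB-deleted libraries, a fall of -4.01 ± 0.61, adjusted p = 0.0154. Here all 4 deleted libraries were under 1 TPM and did not split between NFIB-cKO and NFIB/X-dKO. Ltbp2 (chromosome 12, 84783212 to 84876532), a matrix protein related to the carriers of latent TGF-beta, read 89.03, 52.6, 16.2 and 19.9 TPM in the NFIB-retaining and 3.76, 4.62, 1.70 and 3.01 TPM in the NFIB-deleted libraries and fell by 3.14 on the log2 scale (SE 0.53, adjusted p = 0.0214). For these 3 genes the retaining side was itself graded, with WT above NFIX-cKO, and without WT the differences were -3.69, -2.87 and -2.20, each still called. None of the 3 was called with NFIB/X-dKO 36 left out, and only Myoc was with NFIB/X-dKO 33 left out.

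Krt24 (chromosome 11, 99279959 to 99285262), a keratin of the bulge, had the highest level among the strongest falls, at 460.2, 353, 248 and 261 TPM in the NFIB-retaining and 46, 71.1, 26.7 and 28.6 TPM in the NFIB-deleted libraries. The fall was -2.97 ± 0.30, adjusted p = 0.00774, and -2.64 without WT (adjusted p = 0.0287). Aldh3a1 (chromosome 11, 61207537 to 61218421), an aldehyde dehydrogenase that detoxifies reactive aldehydes, read 70.3, 19.4, 40.1 and 44.7 TPM in the NFIB-retaining and 5.25, 6.74, 5.64 and 5.30 TPM in the NFIB-deleted libraries, a fall of -2.60 ± 0.31, adjusted p = 0.00902. Its 4 deleted libraries lay within 5.25 to 6.74 TPM, and its NFIX-cKO libraries lay between the WT libraries. Fam180a (chromosome 6, 35312668 to 35326141) read 53.6, 22.2, 30.4 and 36.4 TPM in the NFIB-retaining and 7.30, 8.41, 3.51 and 2.69 TPM in the NFIB-deleted libraries, a fall of -2.54 ± 0.35, adjusted p = 0.0126. For Aldh3a1 and Fam180a the difference was of like size without WT, at -2.69 (adjusted p = 0.00802) and -2.51 (adjusted p = 0.0286).

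Slc43a1 (chromosome 2, 84838850 to 84863594), a transporter of large neutral amino acids, read 36.5, 18.99, 10.3 and 10.4 TPM in the NFIB-retaining and 2.04, 2.34, 2.72 and 2.70 TPM in the NFIB-deleted libraries, a fall of -2.36 ± 0.35, adjusted p = 0.0146. Sardh (chromosome 2, 27188393 to 27248337), the mitochondrial sarcosine dehydrogenase, read 78.5, 48.7, 25.1 and 14.1 TPM in the NFIB-retaining and 9.93, 4.68, 1.89 and 1.11 TPM in the NFIB-deleted libraries, a fall of -3.00 ± 0.63, adjusted p = 0.0367. The Sardh values descended from WT through NFIX-cKO and NFIB-cKO to NFIB/X-dKO, and without WT its call ended (-2.17, adjusted p = 0.11). Rnase2b (chromosome 14, 51162260 to 51163018), a secreted ribonuclease of the eosinophil-associated family, read 3.87, 11.6, 2.60 and 3.70 TPM in the retaining libraries and 0.21 and 0.13 TPM in NFIB-cKO, and was listed at 0 in both NFIB/X-dKO libraries. Its difference was -2.39 ± 0.31, adjusted p = 0.00953. Near-identical relatives of this family lie beside it, so its value is uncertain where reads can be split among them.

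The remaining strong falls were genes of lipid synthesis and storage. Fa2h (chromosome 8, 111345135 to 111393824), which hydroxylates fatty acids for sebum and skin lipids, read 32.1, 63.3, 16.6 and 31.2 TPM in the NFIB-retaining and 7.40, 11.4, 0.39 and 0.59 TPM in the NFIB-deleted libraries, a fall of -3.09 ± 0.43, adjusted p = 0.0125. Elovl3 (chromosome 19, 46131897 to 46135694), an elongase of very long fatty acids in the sebaceous gland, read 12.5, 20.4, 9.15 and 15.2 TPM in the NFIB-retaining and 2.35, 4.11, 0.21 and 0.27 TPM in the NFIB-deleted libraries, a fall of -2.70 ± 0.26, adjusted p = 0.00729. Cidea (chromosome 18, 67343604 to 67367785), a lipid droplet protein, read 13.5, 24.4, 10.7 and 10.8 TPM in the NFIB-retaining and 4.12, 4.35, 0.87 and 0.38 TPM in the NFIB-deleted libraries, a fall of -2.37 ± 0.33, adjusted p = 0.0123. All 3 had the order retaining, NFIB-cKO, NFIB/X-dKO, with every NFIB/X-dKO library under 1 TPM. Without WT, Elovl3 was still called (adjusted p = 0.0351), and Fa2h (adjusted p = 0.059) and Cidea (adjusted p = 0.0712) were not.

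**Figure D1:**
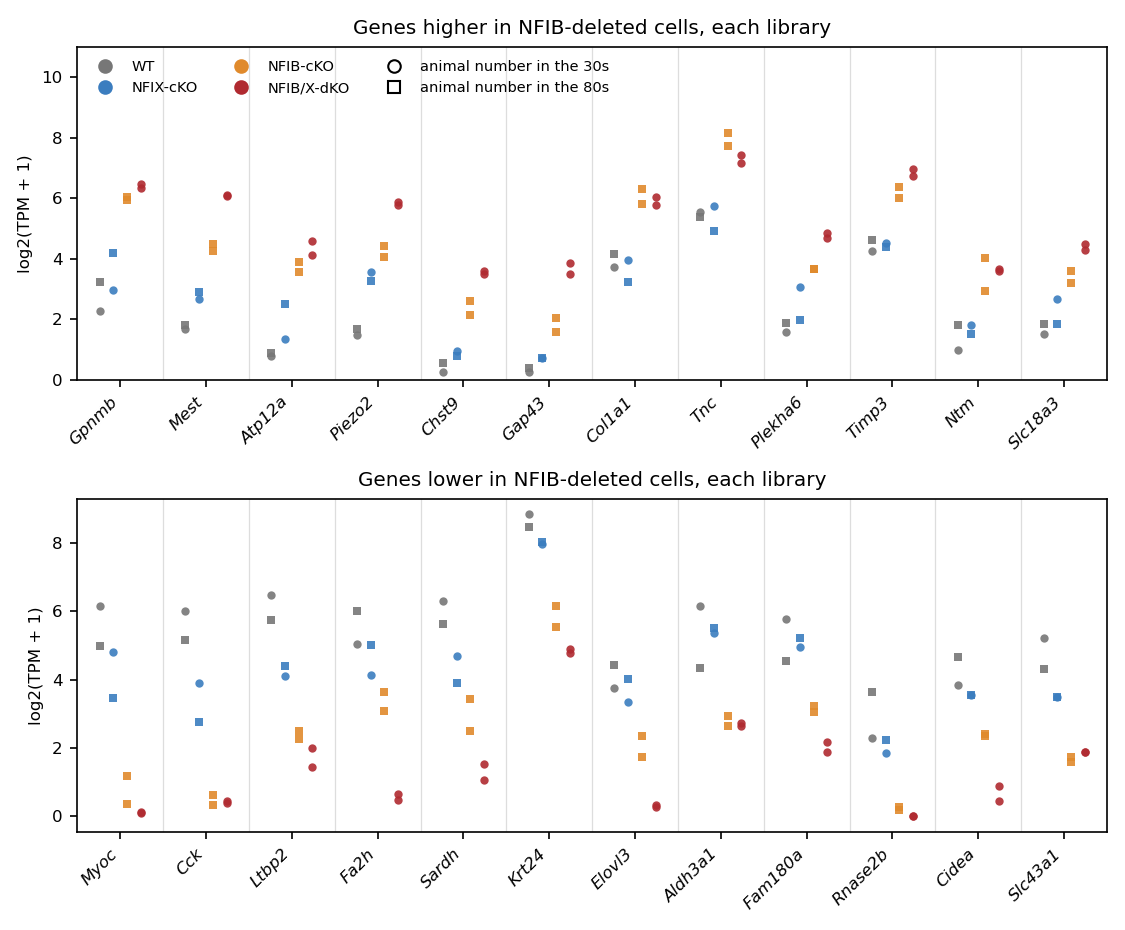
The 12 largest rises and 12 largest falls chosen by the naming rule, as log2(TPM + 1) on the vertical axis, with 1 point per library, colour for the group and shape for the animal series. In every gene the 4 NFIB-deleted libraries (orange and red) lie beyond all 4 NFIB-retaining libraries (grey and blue), which the rule required.

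The sebaceous lipid list holds enzymes and regulators of sebum. Of 24 members tested, 14 fell and 1 (Fads3) rose, beside 1.29% and 4.55% of all genes, and the list's median difference was -1.17 beside 0.10 for all genes. After scaling, 14 fell, none rose and the median was -1.25. The members that fell covered the desaturases Scd1 and Scd3, the elongases Elovl3, Elovl4 and Elovl6, the fatty alcohol reductase Far2, the wax synthase Awat1, Acsbg1, Me1, Soat1, Plin2, Fa2h, Cidea and the lipid regulator Pparg. Elovl6 read 39.6, 38.6, 31.8 and 26.03 TPM in the NFIB-retaining and 14.1, 10.9, 12.1 and 10.6 TPM in the NFIB-deleted libraries, a fall of -1.43 ± 0.15, adjusted p = 0.00818. Its deleted libraries spanned little more than 3 TPM and showed no step between NFIB-cKO and NFIB/X-dKO. Far2 read 21.5, 32.04, 15.5 and 18.5 TPM in the NFIB-retaining and 6.12, 7.22, 4.34 and 2.77 TPM in the NFIB-deleted libraries, a fall of -1.92 ± 0.21, adjusted p = 0.00818. Pparg, which switches on fat and sebum genes, was low throughout, at 1.64 to 3.55 TPM in the NFIB-retaining and 0.19 to 0.73 TPM in the NFIB-deleted libraries (-1.18 ± 0.19, adjusted p = 0.0172).

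Defining markers of sebocytes (Scd3, Mc5r, Awat1 and Awat2) moved with this list. Their summed level was 2.93 to 6.4 TPM in deleted and 14.2 to 40.6 TPM in retaining libraries, highest in WT 82, and Mc5r, the melanocortin receptor of sebocytes, stayed under 1 TPM in every library. Of these 4 markers, Scd3 and Awat1 also count among the 14 falls, and the part of sebocyte RNA in the list's fall was not tested. Fasn, Acaca and Dgat2, general enzymes of fat synthesis in the same list, were not called, at -0.49 ± 0.17, adjusted p = 0.144, 0.07 ± 0.11, adjusted p = 0.727 and -0.16 ± 0.16, adjusted p = 0.576. Elovl4, which also serves the epidermal barrier, read 47.9 to 98.2 TPM in the NFIB-retaining and 17.5 to 20.8 TPM in the NFIB-deleted libraries (-1.71 ± 0.22, adjusted p = 0.00931). Left out in turn, the WT group gave 9 falls, NFIB/X-dKO 33 gave 5 and NFIB/X-dKO 36 gave 3.

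Several genes of the extracellular matrix were among the strongest rises. Tnc (chromosome 4, 63959785 to 64047015) encodes tenascin C, a glycoprotein of the stem cell niche and of wounds. It read 45.9, 40.6, 52.6 and 29.1 TPM in the NFIB-retaining and 282, 209, 143 and 170.1 TPM in the NFIB-deleted libraries, a rise of 2.22 ± 0.24, adjusted p = 0.00818. The NFIB-cKO libraries were highest, and the deleted side had 4.78-fold the mean level of the retaining side. Col1a1 (chromosome 11, 94936224 to 94953042), the alpha 1 chain of type I collagen, read 12.2, 16.6, 14.6 and 8.27 TPM in the NFIB-retaining and 77.3, 55.1, 53.3 and 65.1 TPM in the NFIB-deleted libraries, a rise of 2.22 ± 0.21, adjusted p = 0.00731. The deleted groups were alike in level and the sides lay far apart. Its partner chain Col1a2 read 11.8, 8.01, 10.6 and 33.6 TPM in the NFIB-retaining and 9.22, 3.26, 2.17 and 2.81 TPM in the NFIB-deleted libraries and lay on the other side of zero, uncalled (-1.61 ± 0.43, adjusted p = 0.0696), while the fibroblast genes Col3a1, Pdgfra, Lum and Dcn stood at 0.45 TPM or less in every library. These 6 fibroblast markers summed to 55.7 to 86.8 TPM in deleted and 24.5 to 42.4 TPM in retaining libraries, and most of the deleted sum was Col1a1 itself. The part of fibroblast RNA in the Col1a1 rise was not tested. Timp3 (chromosome 10, 86300372 to 86349506), an inhibitor of matrix proteases that binds matrix, read 18.2, 23.5, 21.97 and 19.96 TPM in the NFIB-retaining and 81.7, 63.95, 106 and 123 TPM in the NFIB-deleted libraries, a rise of 2.07 ± 0.17, adjusted p = 0.00729. Tnc, Col1a1 and Timp3 were called after scaling and without WT too.

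In the basement membrane and adhesion list, 10 of 33 members rose and none fell, beside 4.55% and 1.29% of all genes, with a median of 0.24. By limma on scaled values 6 rose and none fell, with a median of 0.13. The 10 were Tnc, the basement membrane collagens Col4a5 and Col4a6, the laminin chains Lamb1 and Lamc1, Egfl6, and the integrins Itga6, Itga8, Itgb1 and Itgb5. Egfl6, a basement membrane protein that the bulge deposits around nerve endings, read 85.6, 101, 131 and 143 TPM in the NFIB-retaining and 291, 259.9, 284 and 292 TPM in the NFIB-deleted libraries, a rise of 1.31 ± 0.16, adjusted p = 0.00902. Itga8, the alpha chain of an integrin that binds nephronectin, read 0.17, 0.29, 1.46 and 1.57 TPM in the NFIB-retaining and 4.13, 3.16, 7.03 and 7.11 TPM in the NFIB-deleted libraries, a rise of 1.80 ± 0.33, adjusted p = 0.025. It was lowest in WT, intermediate in NFIX-cKO and highest in NFIB/X-dKO, and its call ended without WT (adjusted p = 0.0611). Without WT, Tnc, Col4a5, Egfl6, Lamb1 and Itgb5 were still called and the other 5 were not. Itga6, whose protein was a sort marker, rose by less (0.43 ± 0.08, adjusted p = 0.0267), and its call ended after scaling (adjusted p = 0.0983). The rises numbered 3 when NFIB/X-dKO 33 was left out, 1 without NFIB/X-dKO 36 and 5 without NFIB-cKO 81. No member was lower at an unadjusted p under 0.05, and edgeR and DESeq2 also called 0 lower. Itga8 also belongs to a list of 7 smooth muscle genes, where it was the 1 called of 4 tested. That list summed to 49.22 to 137.54 TPM in deleted and 30.93 to 86.71 TPM in retaining libraries, in overlapping ranges. The part of smooth muscle RNA in the Itga8 rise was not tested.

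Genes known from neurons and touch sensing were a further set among the rises. Piezo2 (chromosome 18, 63010213 to 63387183), a mechanically gated ion channel of touch, read 1.79, 2.18, 10.7 and 8.58 TPM in the NFIB-retaining and 15.8, 20.5, 54.1 and 57.7 TPM in the NFIB-deleted libraries, a rise of 2.55 ± 0.55, adjusted p = 0.0386. Its call ended after scaling (adjusted p = 0.0722) and without WT (1.64, adjusted p = 0.0654), and its levels stepped up from WT through NFIX-cKO and NFIB-cKO to NFIB/X-dKO. Gap43 (chromosome 16, 42248442 to 42340651), a protein of growing axons, read 0.18, 0.31, 0.65 and 0.64 TPM in the NFIB-retaining and 3.10, 1.98, 10.2 and 13.6 TPM in the NFIB-deleted libraries, a rise of 2.23 ± 0.39, adjusted p = 0.0228. Ntm (chromosome 9, 28994750 to 29963141), the adhesion protein neurotrimin, read 0.98, 2.49, 2.51 and 1.82 TPM in the NFIB-retaining and 15.3, 6.65, 10.98 and 11.5 TPM in the NFIB-deleted libraries, a rise of 2.02 ± 0.27, adjusted p = 0.0115. Without WT, Gap43 (adjusted p = 0.0844) and Ntm (adjusted p = 0.0531) were not called. Slc18a3 (chromosome 14, 32462438 to 32464850), the vesicular acetylcholine transporter, read 1.86, 2.57, 5.28 and 2.59 TPM in the NFIB-retaining and 11.2, 8.11, 21.4 and 18.7 TPM in the NFIB-deleted libraries, a rise of 1.93 ± 0.27, adjusted p = 0.0123. It was still called without WT (adjusted p = 0.0287). Atoh1, the transcription factor that defines Merkel cells, read at most 0.01 TPM and Isl1 was listed at 0 in every library. The wider Merkel cell list of 8 genes, which holds Piezo2, had 2 genes tested, with a median difference of 1.66, and 6 genes under 1 TPM in every library. Its sum was 24.7 to 64.6 TPM in deleted and 4.76 to 16.9 TPM in retaining libraries. In every library most of that sum came from the 2 tested genes, so it is not separate from the Piezo2 rise. Besides Piezo2, the simple epithelial keratin Krt8 was tested, at 2.72, 6.80, 6.03 and 5.11 TPM in the NFIB-retaining and 8.53, 13.5, 9.19 and 6.42 TPM in the NFIB-deleted libraries, and its difference of 0.77 ± 0.23, adjusted p = 0.0983 was not called. The part of Merkel cell RNA in the Piezo2 rise was not tested.

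The mechanosensory and neural list had 5 rises (Cadm1, Gap43, Nlgn1, Piezo2 and Nrcam) and 2 falls (Cck and Trpv4) among 20 members, and the axon guidance list 4 rises (Epha4, Robo2, Sema3b and Sema3e) and no fall among 29, beside 4.55% and 1.29% of all genes. Their medians were 0.19 and 0.28, and after scaling 3 members of each list rose. Cadm1, a cell adhesion protein of synapses and epithelia, read 75, 59.3, 79.6 and 61.8 TPM in the NFIB-retaining and 122, 105, 143 and 146 TPM in the NFIB-deleted libraries, a rise of 0.89 ± 0.07, adjusted p = 0.00584, with the smallest p of either list. Epha4, a receptor for ephrins, read 26.6, 34.7, 34.99 and 36.1 TPM in the NFIB-retaining and 68.5, 63.5, 77.99 and 90.1 TPM in the NFIB-deleted libraries, a rise of 1.15 ± 0.14, adjusted p = 0.00902. Robo2, a receptor for Slit proteins, rose by 1.10 ± 0.16, adjusted p = 0.014, and the secreted semaphorin Sema3b by 1.73 ± 0.26, adjusted p = 0.0146. Trpv4, a calcium channel of keratinocytes opened by warmth and stretch, fell, at 58.5 to 94.2 TPM in the NFIB-retaining and 31.8 to 54.4 TPM in the NFIB-deleted libraries (-0.91 ± 0.19, adjusted p = 0.0346). Without WT, Robo2, Sema3e, Nlgn1, Nrcam and Trpv4 were not called. No axon guidance gene was called lower by limma (1 at an unadjusted p under 0.05), 0 by edgeR and 4 by DESeq2. The axon guidance rises numbered 1 when NFIB/X-dKO 33 was left out and 0 without NFIB/X-dKO 36. The neural rises numbered 2 without WT 82, 3 without NFIB-cKO 85 and 1 without each of NFIB-cKO 81, NFIX-cKO 32, NFIB/X-dKO 33 and NFIB/X-dKO 36.

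The other strong rises have varied roles. Gpnmb (chromosome 6, 49036546 to 49070929), a membrane glycoprotein of melanosomes and lysosomes, read 3.86, 8.27, 6.85 and 17.2 TPM in the NFIB-retaining and 65.3, 59.8, 80.6 and 86.8 TPM in the NFIB-deleted libraries, a rise of 3.03 ± 0.35, adjusted p = 0.00818 and the largest by the naming rule. It was called after scaling and without WT (2.61, adjusted p = 0.043). Melanocyte markers lay higher on the same side: Dct, Tyrp1, Mlana and Pmel summed to 24.1 to 30.9 TPM in deleted and 9.26 to 21.1 TPM in retaining libraries, and their part in the Gpnmb rise was not tested. None of the 6 melanocyte genes tested was called by limma, although all 6 differences were positive and 4 had an unadjusted p under 0.05 (edgeR called 0 and DESeq2 called 1). Mest (chromosome 6, 30723547 to 30748465), an imprinted gene of the hydrolase family, read 2.17, 2.52, 5.31 and 6.45 TPM in the NFIB-retaining and 18.1, 21.6, 68.1 and 66.1 TPM in the NFIB-deleted libraries, a rise of 2.97 ± 0.44, adjusted p = 0.0143. The NFIB/X-dKO libraries stood well above NFIB-cKO, and without WT the call ended (adjusted p = 0.0603).

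Atp12a (chromosome 14, 56365068 to 56388550), a proton and potassium pump, read 0.70, 0.86, 1.54 and 4.60 TPM in the NFIB-retaining and 10.8, 13.7, 22.8 and 16.3 TPM in the NFIB-deleted libraries, a rise of 2.66 ± 0.40, adjusted p = 0.0146, which ended without WT (adjusted p = 0.0712). Chst9 (chromosome 18, 15451924 to 15760157), a sulfotransferase that acts on sugar chains, read 0.18, 0.46, 0.94 and 0.71 TPM in the NFIB-retaining and 5.10, 3.43, 10.9 and 10.3 TPM in the NFIB-deleted libraries, a rise of 2.33 ± 0.29, adjusted p = 0.00902. Plekha6 (chromosome 1, 133164210 to 133303435), a protein with a pleckstrin homology domain, read 2, 2.70, 7.32 and 2.95 TPM in the NFIB-retaining and 11.6, 11.6, 24.96 and 27.7 TPM in the NFIB-deleted libraries, a rise of 2.08 ± 0.30, adjusted p = 0.0142. Chst9 and Plekha6 were called without WT (adjusted p = 0.0365 and adjusted p = 0.00802). In all 3 genes every NFIB/X-dKO library lay above every NFIB-cKO library.

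**Figure D2:**
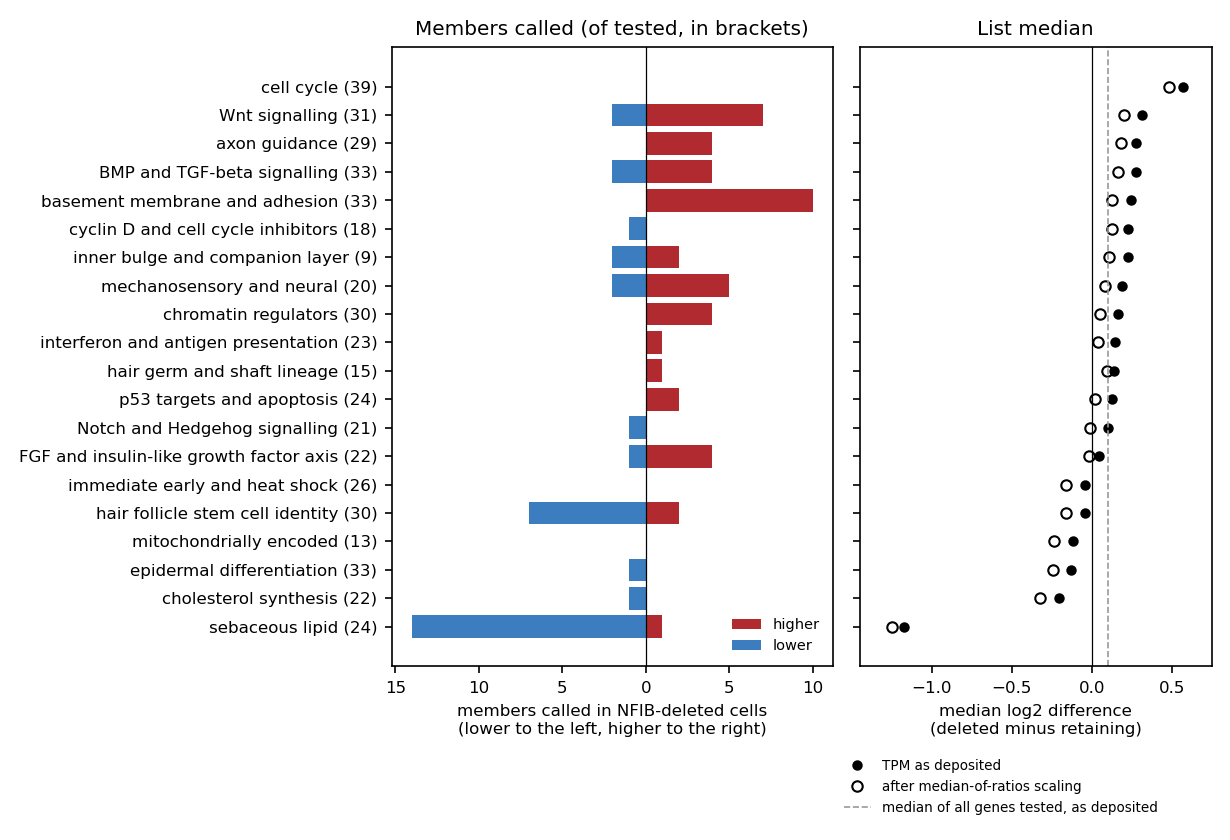
Left, members of each gene list called lower (bars to the left) and higher (bars to the right) in NFIB-deleted cells, with the number tested in brackets and without lists of other cell types' markers or lists with under 5 genes tested. Right, each drawn list's median log2 difference on deposited TPM (filled) and after scaling (open), beside the median of all genes (dashed, 0.10): of the lists drawn, sebaceous lipid lies lowest at -1.17 and cell cycle highest at 0.57.

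Transcripts that define hair follicle stem cells split. Of 30 genes on the identity list, 7 fell (Krt24, Foxi3, Grem1, Hopx, Lhx2, Fgf18 and Lgr5) and 2 rose (Tbx1 and Itga6), beside 1.29% and 4.55% of all genes, and the list's median was -0.05. After scaling the same 7 fell and none rose. Lhx2 (chromosome 2, 38339281 to 38369733), a transcription factor that maintains the bulge, read 291, 314, 209.9 and 262 TPM in the NFIB-retaining and 182, 189, 104 and 122 TPM in the NFIB-deleted libraries, a fall of -0.88 ± 0.15, adjusted p = 0.021. The sides did not overlap, and the NFIB/X-dKO libraries were lowest. Lgr5 (chromosome 10, 115450311 to 115587780), the R-spondin receptor of the lower bulge and hair germ, read 121, 129, 82.02 and 79.4 TPM in the NFIB-retaining and 75.7, 49.2, 38.6 and 44.8 TPM in the NFIB-deleted libraries, a fall of -0.98 ± 0.22, adjusted p = 0.0463. Grem1, a secreted antagonist of BMPs, fell by -1.38 ± 0.22, adjusted p = 0.017, and Hopx, a homeodomain protein, by -1.06 ± 0.17, adjusted p = 0.0177. Foxi3, a forkhead factor of hair placodes, fell by -0.96 ± 0.11, adjusted p = 0.00889. Its level was low, at 2.34 to 2.77 TPM in the NFIB-retaining and 0.57 to 1.12 TPM in the NFIB-deleted libraries, and edgeR did not call it (adjusted p = 0.0517). Tbx1, a transcription factor that supports the stem cells' self-renewal, read 154 to 235 TPM in the NFIB-retaining and 233 to 358 TPM in the NFIB-deleted libraries, a rise of 0.56 ± 0.10, adjusted p = 0.023, and was not called after scaling (adjusted p = 0.0785).

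Several other regulators and markers of the bulge did not pass limma's test. Sox9 read 143, 144, 75.7 and 129 TPM in the NFIB-retaining and 182, 199, 79 and 135 TPM in the NFIB-deleted libraries and differed by 0.23 ± 0.24, adjusted p = 0.584. Its NFIB-cKO libraries were highest, and NFIX-cKO 32 and NFIB/X-dKO 33 were lowest. Nfatc1, which holds the stem cells in rest, differed by 0.47 ± 0.14, adjusted p = 0.0902, and Foxc1 by -0.26 ± 0.21, adjusted p = 0.472. Tcf7l1 differed by -0.01 ± 0.13, adjusted p = 0.961, and Tcf7l2 by 0.18 ± 0.12, adjusted p = 0.369. Krt15 differed by -0.51 ± 0.18, adjusted p = 0.138, and Cd34 by -0.21 ± 0.10, adjusted p = 0.253. On the counts of 5 libraries, Krt15 was called lower by edgeR (-0.87, adjusted p = 0.0379) and by DESeq2 (-0.87, adjusted p = 1.7e-12). Cd34 was called lower by DESeq2 (-0.44, adjusted p = 0.000693) and not by edgeR (adjusted p = 0.0886). Without WT, Lhx2 (adjusted p = 0.0592), Hopx (adjusted p = 0.0512), Fgf18 (adjusted p = 0.09) and Lgr5 (adjusted p = 0.144) lost their calls, and 3 members of the list were still called lower. The falls of the list numbered 2 when NFIB/X-dKO 33 was left out, 1 without NFIB/X-dKO 36 and 4 without WT 82.

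**Figure D3:**
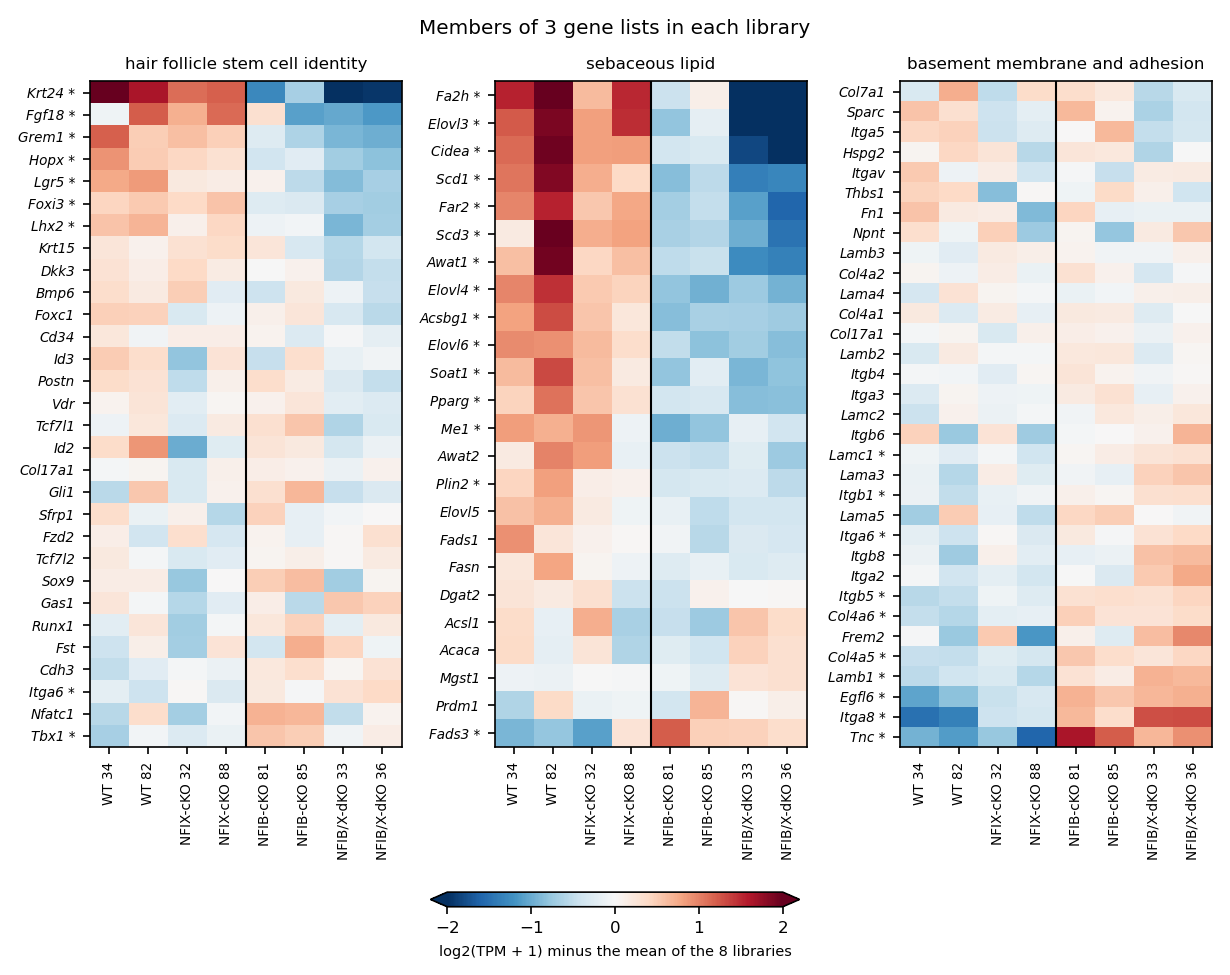
Every tested member of 3 lists (rows, with an asterisk where called) in each library (columns, NFIB-retaining left of the line, NFIB-deleted right), coloured by log2(TPM + 1) minus the gene's mean over the 8 libraries. The sebaceous lipid list shows 14 falls in 24 members and the basement membrane and adhesion list 10 rises in 33, while the identity list has 7 falls and 2 rises in 30.

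Wnt pathway genes moved in both directions. Among 31 tested, 7 rose (Lgr4, Fzd6, Wif1, Rnf43, Wnt6, Wnt7b and Znrf3) and 2 fell (Lgr5 and Lgr6), beside 4.55% and 1.29% of all genes, and the median was 0.31. After scaling 2 rose (Lgr4 and Fzd6) and 2 fell, and without WT the same 2 rises were called. Among R-spondin receptors the directions differed: Lgr4 read 116, 90.2, 134 and 93.3 TPM in the NFIB-retaining and 161, 174, 264 and 225 TPM in the NFIB-deleted libraries, a rise of 0.91 ± 0.08, adjusted p = 0.00729, whereas Lgr6 read 43.2, 36.6, 36.1 and 18.4 TPM in the NFIB-retaining and 7.27, 8.03, 14.3 and 14.6 TPM in the NFIB-deleted libraries, a fall of -1.52 ± 0.19, adjusted p = 0.00931. Neither gene's sides overlapped, and both were called after scaling. Of ligands, Wnt7b rose by 1.01 ± 0.22, adjusted p = 0.0418 and Wnt6 by 1.38 ± 0.29, adjusted p = 0.0357. Wif1, a secreted inhibitor that binds Wnt proteins, read 54.5, 78.3, 54.8 and 58.6 TPM in the NFIB-retaining and 103, 157, 267 and 254 TPM in the NFIB-deleted libraries, a rise of 1.56 ± 0.28, adjusted p = 0.023. Its call ended after scaling (adjusted p = 0.0503) and without WT (adjusted p = 0.0603). Rnf43 and Znrf3, ligases that remove Wnt receptors from the surface, rose by 0.67 ± 0.13, adjusted p = 0.0271 and 0.68 ± 0.16, adjusted p = 0.0475, and the receptor Fzd6 by 0.62 ± 0.08, adjusted p = 0.00902. With NFIB/X-dKO 36 left out 1 rise was called, with NFIB/X-dKO 33 or the WT group left out 2, with NFIB-cKO 81 or NFIB-cKO 85 left out 3, and with NFIX-cKO 88 left out 4.

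In the BMP and TGF-beta list, 4 of 33 members rose and 2 fell, beside 4.55% and 1.29% of all genes, with a median of 0.27. The rises were Fstl1, a secreted glycoprotein that antagonises BMP4 (1.20 ± 0.20, adjusted p = 0.019), the receptors Tgfbr1 (0.43 ± 0.08, adjusted p = 0.0309) and Bmpr1a (0.38 ± 0.08, adjusted p = 0.0336), and Ltbp1 (0.54 ± 0.12, adjusted p = 0.0402), which holds latent TGF-beta in the matrix. Ltbp1 thus moved up while its relative Ltbp2 fell. After scaling only Fstl1 of the 4 was still called, and 3 members fell. Without WT, Tgfbr1 and Ltbp1 were called and Fstl1 and Bmpr1a were not. Fstl1 read 45.01 to 93.3 TPM in the NFIB-retaining and 119.9 to 149.6 TPM in the NFIB-deleted libraries, without overlap. Rises in the list numbered 1 when NFIB-cKO 81 or NFIB-cKO 85 was left out, 2 without NFIX-cKO 88 and 0 without any of WT 82, NFIB/X-dKO 33 and NFIB/X-dKO 36. Its falls numbered 1 without WT 82 or NFIB-cKO 81 and 0 without either NFIB/X-dKO library. All those fits used limma.

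Growth factor genes included Pappa, a protease that frees insulin-like growth factors from their binding proteins, at 2.02, 1.21, 1.97 and 1.68 TPM in the NFIB-retaining and 7.75, 5.03, 13.6 and 12.8 TPM in the NFIB-deleted libraries, a rise of 1.91 ± 0.18, adjusted p = 0.00729. The receptors Igf2r, at 11.3 to 13.3 TPM in the NFIB-retaining and 18.2 to 21.6 TPM in the NFIB-deleted libraries (0.65 ± 0.07, adjusted p = 0.00818), and Fgfr2, at 128 to 179 TPM in the NFIB-retaining and 214 to 303 TPM in the NFIB-deleted libraries (0.75 ± 0.12, adjusted p = 0.0168), and the binding protein Igfbp7 (1.06 ± 0.23, adjusted p = 0.0397) also rose. Fgf18, which keeps follicles in rest, read 16.4, 41.7, 29.2 and 39.5 TPM in the NFIB-retaining and 22.1, 7.73, 8.12 and 7.35 TPM in the NFIB-deleted libraries, a fall of -1.47 ± 0.30, adjusted p = 0.0329. The sides overlapped in Fgf18 because NFIB-cKO 81 stood above WT 34. These were the 4 rises and 1 fall among 22 members of the list, beside 4.55% and 1.29% of all genes, and 3 rises and 1 fall were called after scaling. With NFIB/X-dKO 33 left out the list had 2 rises, and with NFIB/X-dKO 36 left out 1. The fall of Fgf18 was not called without WT 82, NFIX-cKO 32, NFIX-cKO 88, NFIB/X-dKO 33 or NFIB/X-dKO 36, nor without the WT or the NFIX-cKO group, and Igfbp7 was not called after scaling or without WT.

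Among 30 chromatin regulators, 4 rose and 0 fell (median 0.17, beside 4.55% and 1.29% of all genes), and no member was lower at an unadjusted p under 0.05 by limma or was called lower by edgeR or DESeq2. Hmga2, an architectural protein of growing and fetal stem cells, read 3.36, 4.52, 5.67 and 5.90 TPM in the NFIB-retaining and 12.8, 10.6, 18.6 and 17.3 TPM in the NFIB-deleted libraries, a rise of 1.42 ± 0.20, adjusted p = 0.0138, and Chd3, a nucleosome remodeler, read 37.2, 53.5, 65.6 and 41.3 TPM in the NFIB-retaining and 129, 123, 89.1 and 125 TPM in the NFIB-deleted libraries, a rise of 1.24 ± 0.20, adjusted p = 0.0177. Both were called after scaling, and Hmga2 alone of the list's rises without WT, while Jarid2 (0.64 ± 0.14, adjusted p = 0.0383) and Dnmt1 (0.29 ± 0.07, adjusted p = 0.0472) were not. The rises numbered 2 with WT 34, NFIB-cKO 85 or NFIX-cKO 88 left out, 1 with NFIB-cKO 81 or NFIB/X-dKO 33 left out and 0 without NFIB/X-dKO 36.

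No cell cycle gene was called by limma among 39 tested, although all 39 differences were positive, 11 had an unadjusted p under 0.05 and the median was 0.57. By edgeR 0 were called and by DESeq2 1. The list's median deviation from the 8-library mean was -0.81 and -0.51 in WT, 0.07 and 0.19 in NFIX-cKO, 0.34 and 1.41 in NFIB-cKO, and -0.42 and 0.01 in NFIB/X-dKO. NFIB-cKO 85 thus stood far above the rest and NFIB/X-dKO under NFIX-cKO, and without WT the list's median difference was 0.17. The members nearest the threshold were Ccne2, cyclin E2 (0.59 ± 0.15, adjusted p = 0.0612), and Uhrf1, which maintains DNA methylation (0.71 ± 0.18, adjusted p = 0.0622). Of 18 cyclin D genes and cell cycle inhibitors, Cdkn1c, the inhibitor p57, fell, at 5.53 to 8.71 TPM in the NFIB-retaining and 2.80 to 3.55 TPM in the NFIB-deleted libraries (-0.87 ± 0.15, adjusted p = 0.0223), and none rose, beside 1.29% and 4.55% of all genes. Without WT the call of Cdkn1c ended (adjusted p = 0.0532).

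The other lists are read beside the 4.55% of all genes called higher and 1.29% called lower. Among 21 Notch and Hedgehog genes Hhip, which binds Hedgehog proteins, fell (-0.82 ± 0.13, adjusted p = 0.0179), though not without WT (adjusted p = 0.0707). In the inner bulge list the companion layer keratin Krt75 and Fgf18 fell, and Timp3 and Krt6a rose, of 9, Krt6a not after scaling (adjusted p = 0.133). The transcription factor Hoxc13 rose among 15 hair germ and shaft genes (0.40 ± 0.09, adjusted p = 0.0497), and Zmat3 and Bcl2l1 among 24 genes of the p53 response, but none of these 3 was called after scaling. Ifit2 rose among 23 interferon genes (1.28 ± 0.22, adjusted p = 0.022) at 0.25 to 1.10 TPM in the NFIB-retaining and 1.90 to 4.26 TPM in the NFIB-deleted libraries. Its call ended without WT (adjusted p = 0.0552). Of 33 epidermal differentiation genes (median -0.13) limma called only Elovl4, as lower, although 23 differences were negative and 10 positive. Before adjustment, limma's p was below 0.05 for 6 lower members and 2 higher ones. On the counts of 5 libraries edgeR called 3 lower and 0 higher, and DESeq2 called 14 lower and 2 higher. Of 26 immediate early and heat shock genes (median -0.05) limma called 0, with 1 lower at an unadjusted p under 0.05, edgeR called 1 higher and 1 lower, and DESeq2 6 higher and 1 lower. Of 13 mitochondrially encoded genes (median -0.12) limma and edgeR called 0, with 2 lower at an unadjusted p under 0.05, and DESeq2 called 2 lower. Crabp1, a retinoic acid binding protein listed here among dermal papilla markers, fell (-2.02 ± 0.36, adjusted p = 0.0243).

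The promoters of 3 called genes are shown, 2 that fell and 1 that rose, because NFI proteins bind TTGGC, which reads GCCAA on the other strand. Each is the 250 bases before a RefSeq transcript start (GRCm38.p6), 5′ to 3′ on the gene's own minus strand, at chr11:99285263-99285512 for Krt24, chr12:84876492-84876741 for Ltbp2 and chr4:64046937-64047186 for Tnc, whose RefSeq entries also include another start. Capitals mark TTGGC or GCCAA.
Krt24: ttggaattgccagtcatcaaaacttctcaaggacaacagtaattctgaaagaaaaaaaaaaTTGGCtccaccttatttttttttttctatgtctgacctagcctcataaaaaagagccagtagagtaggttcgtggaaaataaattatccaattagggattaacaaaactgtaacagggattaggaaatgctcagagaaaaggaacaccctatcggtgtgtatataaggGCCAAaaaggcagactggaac
Ltbp2: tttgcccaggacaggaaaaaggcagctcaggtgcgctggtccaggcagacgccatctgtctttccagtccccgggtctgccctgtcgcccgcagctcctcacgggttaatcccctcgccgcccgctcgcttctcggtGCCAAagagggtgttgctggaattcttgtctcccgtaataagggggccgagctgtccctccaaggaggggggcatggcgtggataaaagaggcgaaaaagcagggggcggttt
Tnc: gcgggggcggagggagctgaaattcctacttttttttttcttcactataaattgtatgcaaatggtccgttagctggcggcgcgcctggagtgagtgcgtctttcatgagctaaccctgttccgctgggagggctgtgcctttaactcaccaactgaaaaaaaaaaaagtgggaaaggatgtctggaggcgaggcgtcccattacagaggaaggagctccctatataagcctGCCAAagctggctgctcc
Krt24 holds 2 matches, 1 on each strand, and Ltbp2 and Tnc hold 1 each. The window of the other Tnc start, at chr4:64047016-64047265, holds 0. Such matches are common: of genes with a window, they were found in 45.32% of all 27025, in 50.48% of the 9916 tested, in 52.95% of the 508 called higher and in 51.47% of the 136 called lower. The full NFI palindrome, TTGGC and then GCCAA with 5 bases of any kind between them, was in 12 of the 27025 genes (0.0444%) and in none of the called ones. Of the 24 named rises and falls, 15 had a window and 9 of these a match. A match is a string of letters and not a site bound by NFIB, and enhancers lie outside these windows.

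The comparison divides into subsets that share no library, NFIB/X-dKO 33 and 36 against WT 34 and NFIX-cKO 32 in the 30s, and NFIB-cKO 81 and 85 against WT 82 and NFIX-cKO 88 in the 80s. Series and Nfix status of the deleted cells coincide here and cannot be told apart. In a joint fit, limma called 202 genes (1.31%) in the 30s, 121 (0.784%) higher and 81 (0.525%) lower, and 12 (0.0778%) in the 80s, 9 (0.0583%) higher and 3 (0.0194%) lower. The difference between the subsets was called for 6 genes (0.0389%), 4 (0.0259%) higher and 2 (0.0130%) lower in the 30s, all predicted or microRNA genes, which were seen after the fit: Gm25731, Gm21738, Gm13301, Mir7072, Mir7041 and Mir7655. Of 302 genes at least 1 higher in the 80s, 246 (81.5%) were also higher in the 30s, with a median of 0.58 there. Of 240 genes at least 1 lower in the 80s, 190 (79.2%) were lower in the 30s, with a median of -0.87. Over all genes the signs matched in 69.7%, and the differences correlated across genes at a Pearson r of 0.448, a description over genes that share these libraries.

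Single genes gave both patterns. Myoc differed by -5.37 in the 30s and -3.45 in the 80s, Krt24 by -3.56 and -2.39, Mest by 3.93 and 2.02, and Gap43 by 3.20 and 1.25. Tnc went the other way in size, with 1.65 and 2.78, and Col1a1 was even, with 2.06 and 2.37. None of these differences between the series was called (0.999, 0.999, 0.999, 0.57, 0.91 and 0.999 as adjusted p in the same order).

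**Figure D4:**
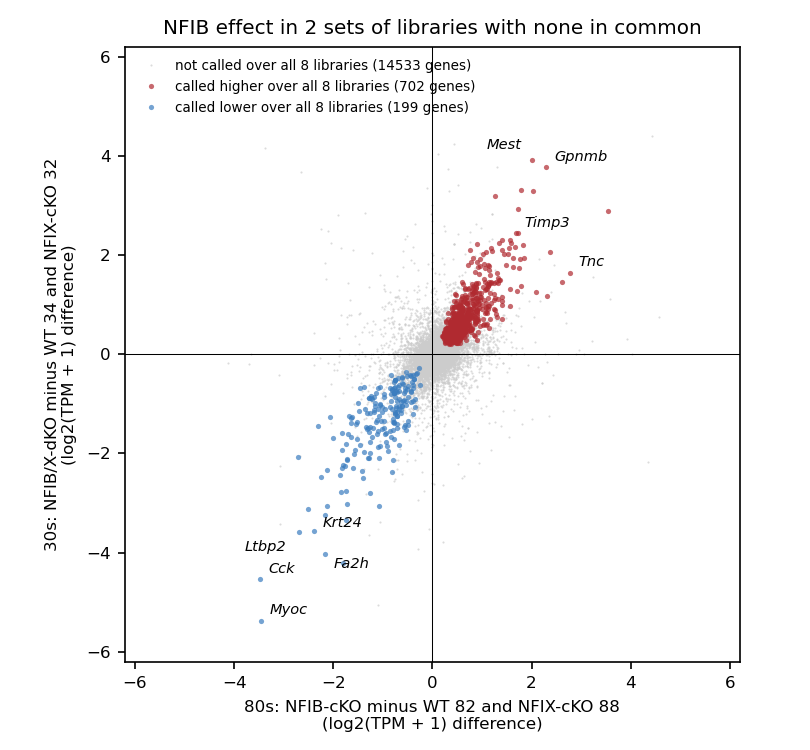
Each point is 1 tested gene, with its NFIB difference in the 80s on the horizontal and in the 30s on the vertical axis, both as log2(TPM + 1), coloured where called over all 8 libraries. The called genes lie in the upper right (702 higher) and lower left (199 lower) of the plot, a placing that follows in part from their being called on all 8 libraries.

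Whether the NFIB difference depended on Nfix was tested with the 4 genotype groups and the series in 1 fit. The difference of differences was called for 13 genes (0.0842%), 11 (0.0713%) more positive and 2 (0.0130%) more negative when Nfix was also lost, and most were predicted genes or pseudogenes. Pde9a, a phosphodiesterase that degrades cyclic GMP, read 4.14, 4.06, 0.18 and 0.07 TPM in the NFIB-retaining and 0.11, 0.27, 4.81 and 6.27 TPM in the NFIB-deleted libraries. It was present in WT and in NFIB/X-dKO and near zero in both single knockouts, a difference of differences of 4.55 ± 0.32 (adjusted p = 0.0255). Mgll, which splits monoacylglycerols, read 37.1, 53.8, 18.7 and 25.9 TPM in the NFIB-retaining and 10.1, 9.97, 15.02 and 15.1 TPM in the NFIB-deleted libraries, with 2.02 ± 0.15 (adjusted p = 0.0258). Its level was highest in WT and lowest in NFIB-cKO. These tests have 2 libraries a group, and only the WT and NFIX-cKO groups inform the series term. NFIB-cKO also differs from WT in Cre and in the YFP gate, whereas NFIB/X-dKO and NFIX-cKO share both. The NFIX-cKO cells had 1 floxed Nfib allele, and for NFIB-cKO no floxed Nfix allele is listed. WT and NFIB/X-dKO, the groups in which Pde9a was present, are the only ones listed with both NFIBfl/fl and NFIXfl/fl. Dependence on Nfix cannot be told apart from these differences in floxed genotype, Cre and gate.

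Within the retaining side, the genes that fell with Nfib loss also tended to lie lower in NFIX-cKO than in WT. Both NFIX-cKO libraries lay under both WT libraries for 75 of the 199 called lower (37.7%) and above both for 6 (3.02%), beside 16.2% and 9.64% of all genes tested. The same 4 libraries entered the calls. For the 702 called higher, both lay above WT in 120 (17.1%) and under it in 38 (5.41%). Myoc, Cck, Ltbp2, Sardh and Lhx2 were among those under WT. The NFIX-cKO cells differed from WT in Nfix, in 1 floxed Nfib allele, in Cre and in the YFP gate, and these cannot be told apart.

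The 5 libraries with count tables held 57173266 to 66854625 expected counts, and the depth behind WT 34, WT 82 and NFIB-cKO 81 is unknown. With 4 animals a side, genes with small or variable differences can be missed here, and a gene not called is not shown to be unaffected.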

How the data were processed

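RNA was sequenced from 8 libraries in 4 genotype groups, taken from the titles. TPM and expected counts per gene were deposited by the authors. Per the submitters' processing notes, reads had been mapped to mm10 (GRCm38) with Bowtie2 2.2.9 and quantified with RSEM 1.2.30. The annotation release is not given in the sources used here. TPM covers all 8 libraries, so it was the main unit, and 0 columns were left unmapped. TPM sums to the same total in every library, so a gene's value also depends on the other genes.

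The test was limma 3.58.1 in R 4.3.3, run on genes that reached a TPM of 1 in 2 or more libraries. Values were log2 transformed after adding 1. The terms were NFIB status and animal series, with a variance trend, 5 residual degrees of freedom and Benjamini-Hochberg adjustment at 0.05. The steps were tested on simulated data. edgeR 4.0.16 and DESeq2 1.42.0 ran on expected counts rounded to whole numbers. Where 2 features share a symbol, the more abundant one was used in a list. Other scalings, filters, terms and subsets were tried, and each library was left out in turn.

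Named genes were the 12 largest called rises and the 12 largest called falls whose sides did not overlap and whose higher side averaged a TPM of 5 or more, leaving out predicted genes, pseudogenes and small RNA genes. The NFI genes, 10 bulge regulators, up to 4 genes of each list and up to 3 a direction called by Nfix status were added. Genes beyond the first 4 of a list are named to account for its called members. The comparison, lists and rule were chosen with earlier results of these data known. Promoter windows were taken from RefSeq (GRCm38.p6). The results of a few genes and of the marker list and gene list they bear on are not reported here.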

Additional observations from a re-analysis of the deposited data

Results flagged for a closer look

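In 5 of 168 sets of 4 values (84 genes, each side taken apart), 1 library lay far from the other 3 of its side, by Dixon's criterion, which chance meets in about 1 of 20 sets. Sox9 read 75.73 TPM in NFIX-cKO 32 and 129.33 to 143.86 TPM in the other NFIB-retaining libraries. Grem1 read 300.52 TPM in WT 34 and 181.81 to 197.23 TPM in the others of that side, and Epha4 26.63 TPM in WT 34 against 34.68 to 36.14 TPM. Fgf18 read 22.11 TPM in NFIB-cKO 81 and 7.35 to 8.12 TPM in the other NFIB-deleted libraries. Chd3 read 89.06 TPM in NFIB/X-dKO 33 and 123.17 to 129.24 TPM in the others of that side.

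By a test of the difference itself, the NFIB difference was unlike with Nfix retained and with Nfix lost in 2 named genes. In limma's fit of 4 groups and the series it was 4.55 more positive on the log2 scale with Nfix lost for Pde9a. For Mgll it was 2.02 more positive. WT lacked Cre and the YFP gate, and only WT and NFIB/X-dKO are listed with both NFIBfl/fl and NFIXfl/fl. Dependence on Nfix itself cannot be told apart from these.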

How the results depend on the processing

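All 901 called genes kept their direction in every limma alternative in which they were tested, and 893 of 894 in edgeR and in DESeq2. Those fits reuse libraries that entered the calls, so this follows in part from the choice of genes. The number called changed more, and the cause was not tested where the same libraries and genes entered. It was 236 with no filter on low values, 436 after median-of-ratios scaling, 151 without the series term, 274 without WT, 214 by edgeR and 1636 by DESeq2 (5 libraries each), 6 in the 30s alone and 0 in the 80s alone by limma, where 1553 genes had an unadjusted p under 0.05. With 1 library left out it ran from 33 (NFIB/X-dKO 36) to 866 (NFIX-cKO 88). Of 68 called genes checked singly, 58 lost their call without NFIB/X-dKO 36 and 44 without NFIB/X-dKO 33. The difference between the series, called for 6 genes, was called for 0 with a pseudocount of 0.1 (616 at an unadjusted p under 0.05 in limma). Without a filter on low counts edgeR called 478 genes. Among the named genes, those whose difference changed sign were not called. Nfix was 0.132 without WT, 0.114 in the 80s alone, 0.0316 by edgeR and 0.0320 by DESeq2, and ran from -0.0949 to 0.0692 with 1 library left out. Nfic was -0.0342 after scaling, -0.00346 without NFIX-cKO, -0.0276 in the 30s alone, -0.0217 by edgeR and -0.0214 by DESeq2. Sox9 was -0.0316 without NFIX-cKO and -0.00988 in the 30s alone, and Foxc1 was 0.0714 without WT. Tcf7l1 was 0.0375 without WT and 0.232 in the 80s alone, and ran from -0.111 to 0.0928 with 1 library left out. Pde9a was -0.876 without NFIX-cKO and -0.971 in the 80s alone, and ran from -0.447 to 0.900 with 1 library left out. No paired analysis was possible because no animal number is shared between groups. The number of animals, 4 a side, limits the precision, and depth is unknown for 3 libraries.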

Other observations

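Genes outside the lists and the naming rule were looked up after their values were seen. Edn2 encodes endothelin 2, a peptide that acts on melanocytes. It read 3.93, 11.64, 13.96 and 14.09 TPM in WT 34, WT 82, NFIX-cKO 32 and NFIX-cKO 88. In NFIB-cKO 81 and 85 it read 20.26 and 33.3 TPM, and in NFIB/X-dKO 33 and 36 it read 21.78 and 18.53 TPM. All 4 NFIB-deleted libraries lay above all 4 NFIB-retaining ones, and the difference of 1.13 ± 0.33 did not pass limma's test (adjusted p = 0.088). Kitl, the ligand of the receptor Kit on melanocytes, ranged from 14.0 to 21.6 TPM in deleted and from 12.9 to 16.5 TPM in retaining libraries, with a difference of 0.24 ± 0.14 (adjusted p = 0.315).

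Krt5 and Krt14, the paired keratins of basal cells, differed in size. Krt5 differed by -0.01 ± 0.13 (adjusted p = 0.965) and Krt14 by -0.75 ± 0.19 (adjusted p = 0.0589), with 1901 to 3058 TPM of Krt14 in NFIB-deleted and 3143 to 4692 TPM in NFIB-retaining libraries. Neither passed the test.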
